A study of Homo sapiens with 12 samples.

Results

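The 42 genes described here encode the NF-kB transcription factors, the IkB proteins that bind them, signalling proteins of the pathway, well-known NF-kB target genes and acute-phase proteins. They were chosen by name, with earlier results of these data known, and all 42 were found among the 19973 genes of the expression table. They were read in 12 RNA sequencing libraries of human prostate cancer cells, in 4 groups of 3. C4-2 is a castration-resistant line derived from LNCaP cells, and 22Rv-1 is a line derived from a xenograft that expresses ARv7 by itself. C4-2 control cells were infected with a lentiviral vector control, and C4-2 ARv7 cells with a lentivirus that overexpresses ARv7. 22Rv-1 shcontrol cells carried the vector control of a short hairpin, and 22Rv-1 shARv7 cells a hairpin that depletes ARv7. All 4 groups were thus infected with lentivirus, and the stable cells were generated by puromycin selection. The promoter that drives ARv7, and whether the cells are clones or pools, were not stated in the labels. The question of the design is which genes change when the level of ARv7 is raised in one line or lowered in the other.

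NF-kB is a family of dimers built from RELA, RELB, REL and the processed products of NFKB1 and NFKB2. In resting cells IkB proteins hold most dimers in the cytoplasm, and kinases that are switched on by cytokines and other stresses release them. Many genes of the pathway's own brakes, such as NFKBIA and TNFAIP3, are targets of NF-kB, so their transcripts are often read as a sign of its activity. Acute-phase proteins are secreted mainly by the liver in inflammation, under the control of interleukins, C/EBP factors, STAT3 and NF-kB.

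Promoter sequences of 6 of the genes are shown to let their letters be compared: those of 5 genes of the pathway that hold an NF-kB motif and whose transcripts went different ways, and that of ORM1, which holds none. Each runs from 250 bases before to 50 bases after a RefSeq start (GRCh38.p14), 5′ to 3′ along the gene. Capitals mark the NF-kB consensus motif on either strand, and in ORM1 the C/EBP motif TTNNGNAAN on either strand. Matches that overlap are merged into one run of capitals. Where a gene has several annotated starts, these data do not show which was used. For NFKB2 and CD83 the promoter shown is one with a match. The RefSeq promoter at the gene start of the expression table held no match for either gene.
NFKBIA chr14:35404700-35404999 (- strand): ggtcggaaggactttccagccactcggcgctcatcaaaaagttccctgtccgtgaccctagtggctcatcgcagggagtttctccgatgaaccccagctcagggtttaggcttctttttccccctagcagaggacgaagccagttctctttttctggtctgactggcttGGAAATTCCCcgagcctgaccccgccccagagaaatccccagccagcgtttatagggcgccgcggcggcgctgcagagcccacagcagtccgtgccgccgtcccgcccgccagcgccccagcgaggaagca
NFKBIZ chr3:101827740-101828039 (+ strand): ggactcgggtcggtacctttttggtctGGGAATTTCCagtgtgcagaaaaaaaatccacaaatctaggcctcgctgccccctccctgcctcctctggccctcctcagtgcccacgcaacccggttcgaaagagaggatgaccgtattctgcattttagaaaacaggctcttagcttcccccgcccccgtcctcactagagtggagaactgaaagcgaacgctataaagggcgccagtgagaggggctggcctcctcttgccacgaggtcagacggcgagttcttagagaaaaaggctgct
NFKB2 chr10:102394328-102394627 (+ strand): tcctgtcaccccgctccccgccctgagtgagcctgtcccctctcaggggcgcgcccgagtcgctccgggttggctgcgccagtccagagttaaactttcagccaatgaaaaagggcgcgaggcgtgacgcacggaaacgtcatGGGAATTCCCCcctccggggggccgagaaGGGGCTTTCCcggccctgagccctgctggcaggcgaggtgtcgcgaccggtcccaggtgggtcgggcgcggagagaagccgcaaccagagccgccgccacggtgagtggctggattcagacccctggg
TNFAIP3 chr6:137867009-137867308 (+ strand): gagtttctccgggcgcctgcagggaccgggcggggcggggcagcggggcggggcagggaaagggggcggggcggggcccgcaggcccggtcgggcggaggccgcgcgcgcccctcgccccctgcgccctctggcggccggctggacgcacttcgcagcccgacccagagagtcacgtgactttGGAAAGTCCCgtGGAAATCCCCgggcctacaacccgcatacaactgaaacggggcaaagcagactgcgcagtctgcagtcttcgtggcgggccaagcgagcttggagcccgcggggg
CD83 chr6:14117522-14117821 (+ strand): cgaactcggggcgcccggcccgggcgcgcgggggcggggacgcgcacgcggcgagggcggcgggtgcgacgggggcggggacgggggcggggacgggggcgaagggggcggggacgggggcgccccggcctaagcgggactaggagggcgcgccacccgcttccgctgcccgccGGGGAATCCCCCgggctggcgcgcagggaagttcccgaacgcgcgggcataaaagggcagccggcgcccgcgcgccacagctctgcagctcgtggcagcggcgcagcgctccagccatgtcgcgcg
ORM1 chr9:114322848-114323147 (+ strand): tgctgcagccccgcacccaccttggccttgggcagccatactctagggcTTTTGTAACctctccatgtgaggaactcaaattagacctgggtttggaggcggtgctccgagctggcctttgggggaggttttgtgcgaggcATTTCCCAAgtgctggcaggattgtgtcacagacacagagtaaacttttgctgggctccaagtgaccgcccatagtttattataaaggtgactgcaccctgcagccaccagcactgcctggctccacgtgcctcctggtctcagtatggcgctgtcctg

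Of the 42 genes, 33 had at least 1 promoter entry in RefSeq. The NF-kB motif was found in a promoter of 19 of these 33 genes (57.6%) and of 1283 of the 15166 genes of the expression table with an entry (8.46%). By promoter, it was in 24 of 56 (42.9%) against 6.54% of 21395. The C/EBP motif, a shorter one, was in 24 of the 56 promoters (42.9%) against 31.2%. Many of the 42 genes were chosen as well-known NF-kB targets, so a high share of this motif cannot be read as a result of these data. More entries per gene also raise a share by gene, and these were 56 for 33 genes against 21395 for 15166. A match is a description of the letters in the window and not a site of binding. Nor does the lack of a match show that a gene is not a target, since CXCL8 and ICAM1 held none.

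Total counts ran from 12318529 to 14672948 per library, and 3 counts come to between 0.204 and 0.244 CPM (counts scaled to the library total). Such floors and the sums over cell type markers use plain total counts. Other CPM values are after TMM normalisation over all 12 libraries. Each of 9 prostate epithelial markers was detected in every group, with a summed level of 6079 to 6506 CPM in C4-2 control, 10928 to 11000.3 in C4-2 ARv7, 3775 to 3915 in 22Rv-1 shcontrol and 3268 to 3317 in 22Rv-1 shARv7. Of 12 leukocyte markers, 3 to 5 were at 0 in a group. Their summed level was 3.6 to 5.52 CPM in C4-2 control, 1.16 to 2.15 in C4-2 ARv7, 1.95 to 3.2 in 22Rv-1 shcontrol and 3.5 to 18 in 22Rv-1 shARv7, where replicate 1 held the highest value. C4-2 control replicate 3 stood apart from its group, at a chi-square over genes, divided by its degrees of freedom, of 12.96 and 7.15 against replicates 1 and 2, where the other pairs of replicates had 2.12 to 4.77. Nothing in the labels says that the dishes were separate infections, so p-values measure only the spread between dishes.

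In C4-2 cells, ARv7 was accompanied by changes in both directions among these genes. Of 25 that passed the filter on low counts, 9 were higher, 8 lower and 8 not called at an adjusted p under 0.05 (edgeR quasi-likelihood test, Benjamini-Hochberg over all genes tested). That is 68% of the genes tested here, against 59.1% of all 12783 genes tested. By size, 14 were called with a change of at least 2-fold, where 13.2% of all genes tested were. The median log2 change was 0.20 against 0.005 over all genes, and the median size without sign was 1.04 against 0.34. Scaling to total counts shifted the median of all genes in C4-2 to 0.15 and the share of higher among all calls from 50.03% to 67.2%, and gave 10 higher and 8 lower here. In 22Rv-1 cells depleted of ARv7, 26 genes were tested, of which 13 were higher, 2 lower and 11 not called. That is 57.7%, against 48% of all 13459 genes tested. A change of at least 2-fold was called for 9 of them, and for 7.65% of all genes tested. Total counts took the share of higher calls over all genes from 49.8% to 58.5% and left 13 higher and 2 lower. The median log2 change was 0.22 against 0.009, and the median size 0.47 against 0.22. Genes left out by the filter, 17 in C4-2 and 16 in 22Rv-1, are described by their counts. RNA was taken from whole dishes, so fewer cells that express a gene and less RNA per cell cannot be told apart.

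**Figure D1:**
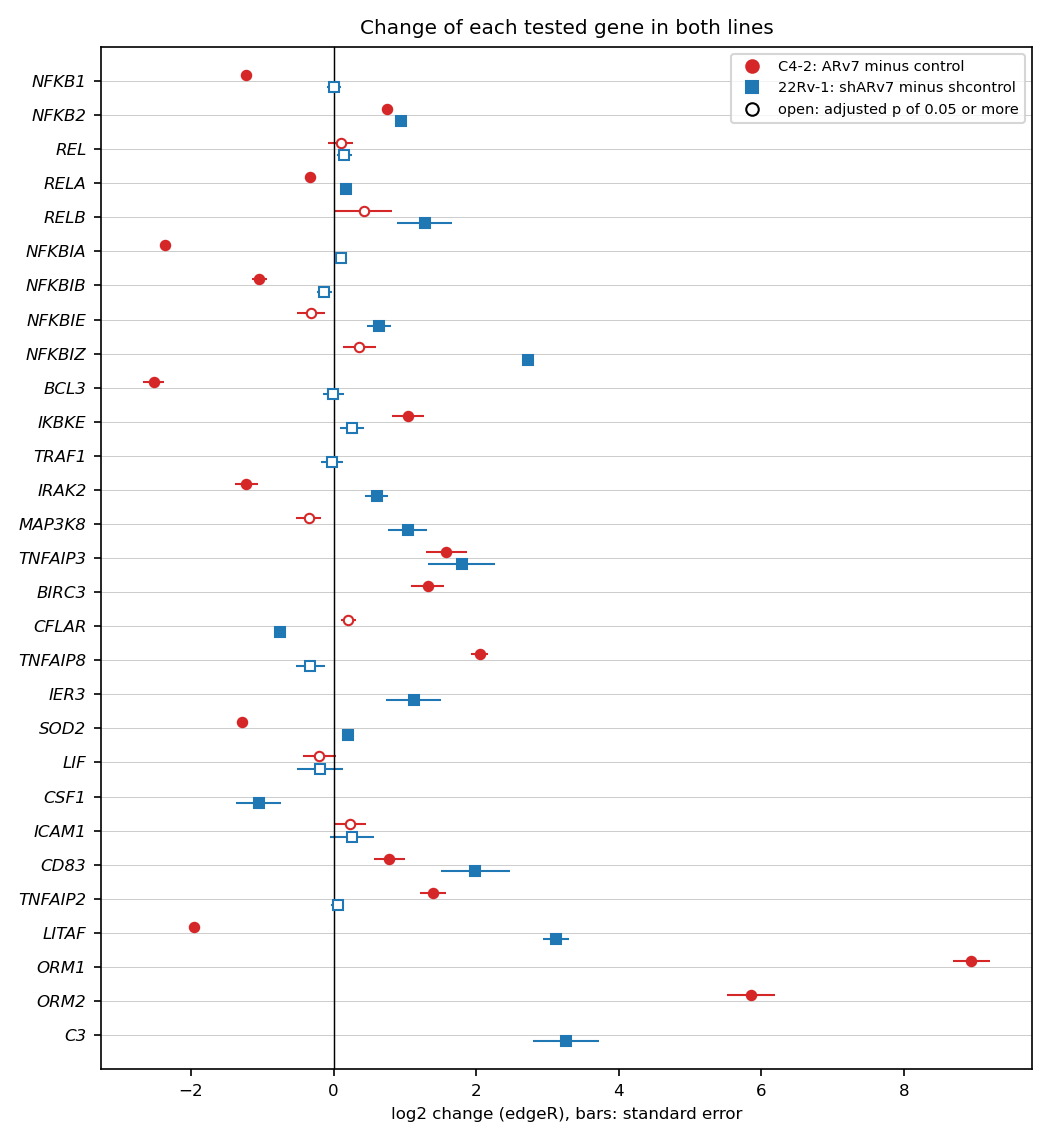
Log2 change with its standard error for the 29 genes tested in at least 1 line, C4-2 ARv7 minus control (circles) and 22Rv-1 shARv7 minus shcontrol (squares). Open symbols did not pass an adjusted p of 0.05. ORM1 and ORM2 lie far to the right in C4-2, and LITAF has circles and squares on opposite sides of 0.

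Of the 5 subunit genes, NFKB1 fell and NFKB2 rose with ARv7 in C4-2 cells. NFKB1 (chr4:102501331-102617302, + strand, GRCh38, whole gene from start to end) encodes p105, the precursor of p50. It read 104, 114 and 110.4 CPM in C4-2 control and 48.1, 46.6 and 46.7 CPM with ARv7. All ARv7 libraries were below all control libraries, and the fall was 1.22 ± 0.069 on the log2 scale, 2.33-fold, with an adjusted p of 8.6e-12; here and below ± after a log2 value gives its standard error. In 22Rv-1 it read 23.4, 29.6 and 23.1 CPM with shcontrol and 25.1, 23.2 and 27.4 with shARv7, and the groups overlapped (log2 change -0.00066 ± 0.099, adjusted p = 0.996).

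NFKB2 (chr10:102394110-102402524, + strand) encodes p100, the precursor of p52 and the core of the non-canonical pathway. Its level was 36.5, 36.2 and 38.5 CPM in C4-2 control and 60.4, 63.7 and 64.8 CPM in C4-2 ARv7. The rise was 0.75 ± 0.076 on the log2 scale, 1.69-fold, with an adjusted p of 6.1e-08. It also rose when ARv7 was depleted: shcontrol libraries held 44.3, 42.7 and 40.2 CPM and shARv7 libraries 80.8, 77 and 86 CPM, a rise of 0.94 ± 0.070 on the log2 scale, 1.92-fold, with an adjusted p of 4.9e-20. In both lines the groups did not overlap. NFKB2 was thus higher both with added ARv7 in C4-2 and with depleted ARv7 in 22Rv-1.

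RELA, which encodes the p65 subunit that carries the activation domain of the main dimer, changed by little. It fell in C4-2 by 0.33 ± 0.071 on the log2 scale, 1.26-fold, with an adjusted p of 4.9e-04. In 22Rv-1 it rose with shARv7 by 0.17 ± 0.064 (adjusted p = 0.0185) on the log2 scale, a call that was lost without shcontrol replicate 2 (adjusted p = 0.0542) or without shARv7 replicate 2 (adjusted p = 0.105). REL, which encodes c-Rel, was not called in either line, with log2 changes of 0.10 ± 0.18 (adjusted p = 0.636) in C4-2 and 0.15 ± 0.10 (adjusted p = 0.229) in 22Rv-1. An RNA on the same strand overlaps 43.3% of the exon bases of REL, so its reads are uncertain.

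RELB, the partner of p52, was near the limit of detection. Its counts in 22Rv-1 were 17, 14 and 8 with shcontrol and 50, 18 and 25 with shARv7. The rise was 1.28 ± 0.39 on the log2 scale, 2.42-fold, with an adjusted p of 0.00434. It rested on shARv7 replicate 1: without that library the log2 change was 0.73 and the adjusted p 0.196. The same library had the highest summed level of the 12 leukocyte markers (18 CPM), with 114, 9 and 27 counts of LYZ and 26, 7 and 10 of PTPRC in the 3 shARv7 libraries, while CD3E, CD2 and MS4A1 were at 0 in all 3. The part of such cells in the RELB value was not tested. In C4-2 the RELB counts were 16, 22 and 6 with control and 20, 23 and 18 with ARv7, and it was not called (log2 change 0.42 ± 0.40, adjusted p = 0.384).

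**Figure D2:**
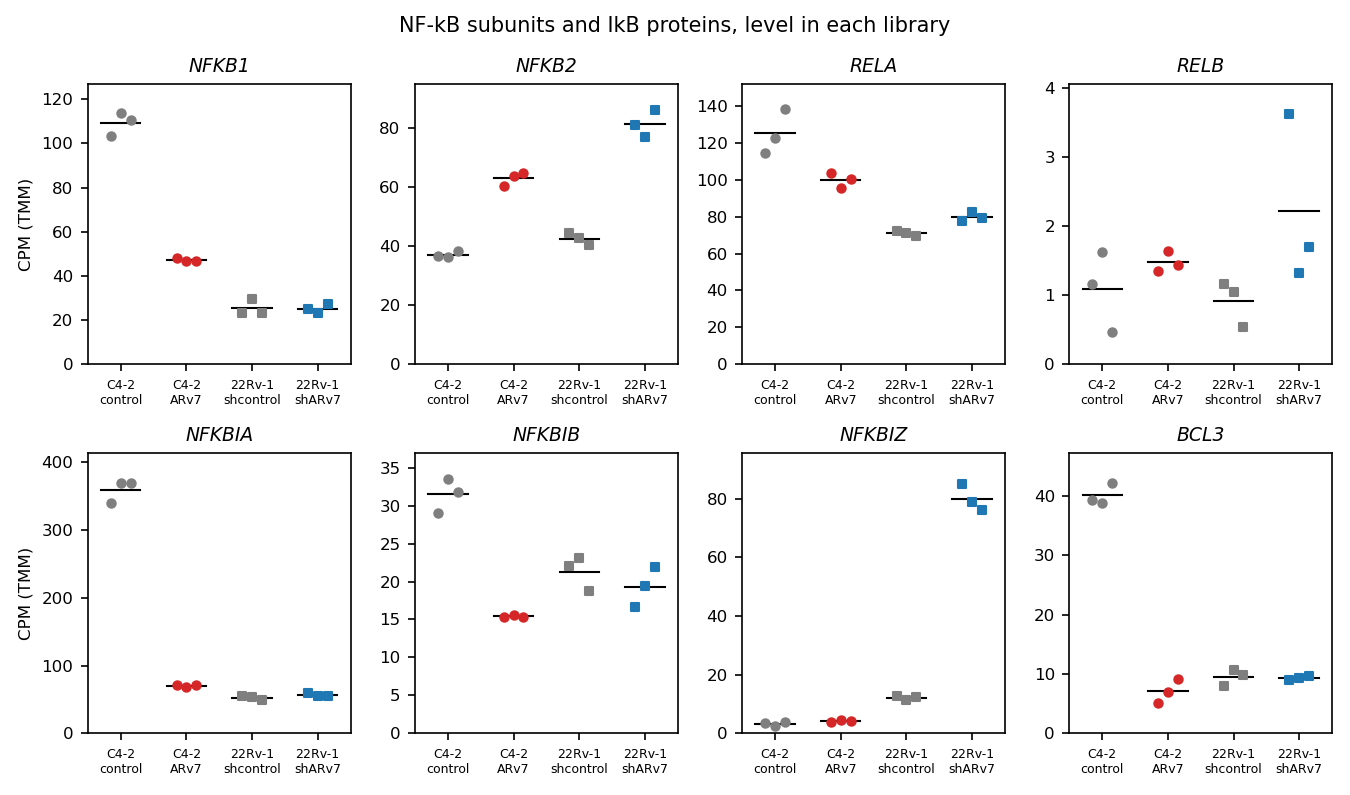
Level in CPM (TMM-normalised, linear axis from 0) of 4 subunit and 4 IkB-type genes in each of the 12 libraries, with a line at the mean of each group of 3. NFKBIA and BCL3 are high in C4-2 control alone, and NFKBIZ in 22Rv-1 shARv7.

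Of the 5 genes of IkB-type inhibitors and cofactors, 3 fell in C4-2 with ARv7, where 29.5% of all genes tested fell, and 2 rose in 22Rv-1 with shARv7, where 23.9% of all genes rose. NFKBIA (chr14:35401513-35404749, - strand) encodes IkBα, which holds RELA dimers in the cytoplasm and is itself induced by NF-kB. C4-2 control libraries held 340.1, 369.5 and 370.0 CPM and C4-2 ARv7 libraries 71.5, 67.8 and 71.8 CPM. No other library of the study came near the C4-2 control level, since 22Rv-1 libraries held 55.2, 53.5 and 49.3 CPM with shcontrol and 59.1, 55.4 and 54.9 with shARv7. The fall in C4-2 was 2.37 ± 0.062 on the log2 scale, 5.15-fold, with an adjusted p of 8.9e-17. In 22Rv-1 it was not called (log2 change 0.11 ± 0.072, adjusted p = 0.228). Its promoter above holds 1 match to the NF-kB motif.

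BCL3 encodes a nuclear IkB protein that binds p50 and p52 homodimers. It read 39.4, 38.8 and 42.3 CPM in C4-2 control and 5.09, 6.98 and 9.2 CPM in C4-2 ARv7. The ARv7 libraries stood at the level of the 22Rv-1 libraries, which ran at 7.95, 10.6 and 9.82 CPM with shcontrol and 9.08, 9.39 and 9.64 with shARv7. The fall in C4-2 was 2.53 ± 0.14 on the log2 scale, 5.76-fold, with an adjusted p of 1.0e-11, and 22Rv-1 showed no call (log2 change -0.0075 ± 0.15, adjusted p = 0.972). NFKBIB, which encodes IkBβ, fell in C4-2 by 1.04 ± 0.10 on the log2 scale, 2.06-fold, with an adjusted p of 4.1e-08, and was not called in 22Rv-1 (log2 change -0.13 ± 0.11, adjusted p = 0.326).

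NFKBIZ (chr3:101827991-101861022, + strand) encodes IkBζ, a nuclear cofactor that is needed for a class of late NF-kB targets, LCN2 and IL6 among them. It read 12.6, 11.3 and 12.3 CPM with shcontrol and 85, 78.8 and 76.3 CPM with shARv7, so that each shARv7 library held several times the level of each shcontrol library. The rise was 2.73 ± 0.087 on the log2 scale, 6.64-fold, with an adjusted p of 5.9e-42. In C4-2 it was low, at 46, 36 and 50 counts with control and 59, 65 and 52 with ARv7, and not called (log2 change 0.36 ± 0.23, adjusted p = 0.196). LCN2 and IL6 were at 0 in all 6 libraries of 22Rv-1.

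NFKBIE encodes IkBε, and its counts in 22Rv-1 were 101, 79 and 78 with shcontrol and 126, 116 and 152 with shARv7. All shARv7 libraries were higher, by 0.64 ± 0.17 on the log2 scale, 1.56-fold, with an adjusted p of 8.7e-04. In C4-2 it was not called (log2 change -0.31 ± 0.20, adjusted p = 0.181).

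Among the 5 signalling genes, TNFAIP3 rose in both lines. It encodes A20, an enzyme that edits ubiquitin chains and ends NF-kB signalling. Its counts were 14, 23 and 18 in C4-2 control and 74, 54 and 44 in C4-2 ARv7. The rise was 1.58 ± 0.29 on the log2 scale, 2.99-fold, with an adjusted p of 1.1e-04. In 22Rv-1 the counts were 5, 5 and 8 with shcontrol and 23, 19 and 20 with shARv7, a rise of 1.80 ± 0.47 on the log2 scale, 3.47-fold, with an adjusted p of 9.3e-04. Levels were low in all 4 groups (1.37 ± 0.339, 4.13 ± 0.788, 0.417 ± 0.103 and 1.47 ± 0.17 CPM, mean ± SD, n = 3 each, in the same order), yet the groups of each line did not overlap. The ratio of the 22Rv-1 counts was 3.64 (95% counting interval 2.12 to 6.53), for counting error only.

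IRAK2 encodes an adaptor of the interleukin-1 and Toll-like receptors. Its counts were 153, 162 and 143 in C4-2 control and 83, 65 and 55 in C4-2 ARv7. It fell by 1.23 ± 0.16 on the log2 scale, 2.34-fold, with an adjusted p of 2.6e-06. In 22Rv-1 it rose with shARv7 by 0.60 ± 0.16 on the log2 scale, 1.52-fold, with an adjusted p of 0.0013. IRAK2 was thus lower where ARv7 was higher in both lines.

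MAP3K8 encodes the kinase TPL2, which binds p105. It had 32, 27 and 22 counts with shcontrol and 64, 56 and 43 with shARv7 in 22Rv-1, a rise of 1.04 ± 0.28 on the log2 scale, 2.06-fold, with an adjusted p of 0.00113. In C4-2 it was not called (log2 change -0.35 ± 0.18, adjusted p = 0.103). IKBKE encodes the kinase IKKε, and it rose in C4-2 by 1.04 ± 0.23 on the log2 scale, 2.06-fold, with an adjusted p of 5.4e-04, with no call in 22Rv-1 (log2 change 0.26 ± 0.16, adjusted p = 0.187). TRAF1, an adaptor of TNF receptors, had 6 and 13 counts summed over the libraries of each C4-2 group, under the filter, and was not called in 22Rv-1 (log2 change -0.017 ± 0.15, adjusted p = 0.94).

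Of the 5 survival and stress genes, TNFAIP8 and BIRC3 rose and SOD2 fell with ARv7 in C4-2. TNFAIP8 encodes a TNF-induced protein that counters cell death. It read 17.5, 16.7 and 11.3 CPM in C4-2 control and 63, 62.1 and 65 CPM in C4-2 ARv7, with no overlap. The rise was 2.05 ± 0.12 on the log2 scale, 4.13-fold, with an adjusted p of 9.4e-12. In 22Rv-1 it was not called (log2 change -0.33 ± 0.20, adjusted p = 0.185), although each shARv7 library was below each shcontrol library.

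BIRC3 encodes cIAP2, a ubiquitin ligase bound to TNF receptor complexes and a classical NF-kB target. Its counts were 35, 29 and 29 in C4-2 control and 74, 82 and 84 in C4-2 ARv7. The rise was 1.32 ± 0.23 on the log2 scale, 2.5-fold, with an adjusted p of 6.8e-05. In 22Rv-1 it was under the filter, with 1, 6 and 2 counts with shcontrol and 14, 13 and 9 with shARv7, a ratio of 4.22 (95% counting interval 1.996 to 9.97).

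SOD2 encodes the superoxide dismutase of mitochondria. C4-2 control libraries held 151, 144 and 136 CPM and C4-2 ARv7 libraries 57.7, 61.8 and 57.6 CPM. It fell by 1.29 ± 0.068 on the log2 scale, 2.45-fold, with an adjusted p of 3.2e-12. In 22Rv-1 the levels were 148, 143 and 145 CPM with shcontrol and 161, 166 and 170.0 with shARv7, a small rise of 0.20 ± 0.052 (adjusted p = 0.00131) on the log2 scale. CFLAR, which encodes the caspase-8 inhibitor c-FLIP, went the other way in 22Rv-1. It read 51, 52.6 and 55.9 CPM with shcontrol and 31.9, 32.3 and 30.5 with shARv7, a fall of 0.75 ± 0.079 on the log2 scale, 1.68-fold, with an adjusted p of 3.7e-13. It was not called in C4-2 (log2 change 0.20 ± 0.10, adjusted p = 0.103).

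IER3, an immediate early gene, was at 3 and 3 counts summed over each C4-2 group. In 22Rv-1 it had 7, 11 and 20 counts with shcontrol and 23, 34 and 24 with shARv7. The rise was 1.12 ± 0.39 on the log2 scale, 2.17-fold, with an adjusted p of 0.0129. This call was lost with DESeq2 (adjusted p = 0.0612), without shcontrol replicate 1 (0.115) and without shARv7 replicate 2 (0.0997). An antisense RNA overlaps 26.5% of its exon bases, and without a known strand their reads cannot be told apart.

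The chemokines among these genes were almost absent from both lines. CXCL1, and with it the cytokine IL6, had no read in any of the 12 libraries, which allows at most 0.204 to 0.244 CPM of total counts in a library. CXCL2, CXCL3, CXCL8 and CCL20, all chemokines, had at most 4 counts in any group. None of the 6 chemokines passed the filter in either line. CCL2, a chemokine that draws monocytes, had 2, 5 and 9 counts in C4-2 control and none in C4-2 ARv7, which is at least 4.99-fold lower against a floor of 3 counts over the group.

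Among the 7 cytokines, IL1A, IL1B, TNF and LTB stayed under the filter in both lines. IL1B had 5 counts with shcontrol and 14 with shARv7, and LTB 8 and 18, each summed over 3 libraries. TNF had no read outside the shARv7 group, where it had 3, 2 and 1 counts. LIF, a cytokine of the IL-6 family, was measurable and not called in C4-2 (log2 change -0.20 ± 0.24, adjusted p = 0.489) or 22Rv-1 (log2 change -0.19 ± 0.32, adjusted p = 0.653).

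CSF1, the growth factor of macrophages, had no read in the 6 C4-2 libraries. In 22Rv-1 it had 44, 42 and 37 counts with shcontrol and 18, 16 and 24 with shARv7. All shARv7 libraries were lower, by 1.05 ± 0.31 on the log2 scale, 2.08-fold, with an adjusted p of 0.00373. With CFLAR it was 1 of the 2 genes that fell in 22Rv-1.

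LITAF (chr16:11547722-11636381, - strand) encodes a membrane protein of late endosomes that is induced by lipopolysaccharide and TNF. It read 338, 373 and 411 CPM in C4-2 control and 104, 96.5 and 91.1 CPM in C4-2 ARv7. The fall was 1.96 ± 0.072 on the log2 scale, 3.88-fold, with an adjusted p of 1.4e-14. In 22Rv-1 it started from 1.23, 2.69 and 1.74 CPM with shcontrol and stood at 15.7, 17.4 and 15.8 CPM with shARv7, a rise of 3.12 ± 0.19 on the log2 scale, 8.7-fold, with an adjusted p of 5.4e-25. LITAF was thus lower where ARv7 was higher in both lines, with no overlap of groups in either. RefSeq promoters of LITAF held no match to the NF-kB motif. Their starts lay 48915 to 49462 bases from the gene start of the expression table, which had no RefSeq promoter of its own.

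CD83 encodes a surface protein best known from mature dendritic cells. Its counts were 45, 38 and 38 in C4-2 control and 75, 79 and 62 in C4-2 ARv7, a rise of 0.78 ± 0.22 on the log2 scale, 1.72-fold, with an adjusted p of 0.00441. In 22Rv-1 it had 7, 6 and 3 counts with shcontrol and 25, 21 and 17 with shARv7, a rise of 1.98 ± 0.48 on the log2 scale, 3.96-fold, with an adjusted p of 4.0e-04. The ratio of the 22Rv-1 counts was 4.16 (95% counting interval 2.37 to 7.71). Like NFKB2 and TNFAIP3, it rose both with added and with depleted ARv7.

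TNFAIP2, a TNF-induced gene of membrane protrusions, read 2.91, 4.05 and 4.12 CPM in C4-2 control and 10.03, 9.05 and 10.2 CPM in C4-2 ARv7. The rise was 1.39 ± 0.19 on the log2 scale, 2.62-fold, with an adjusted p of 2.8e-06. In 22Rv-1, where its level was higher, it was not called (log2 change 0.057 ± 0.088, adjusted p = 0.621). ICAM1, an adhesion molecule and classical NF-kB target, was not called in C4-2 (log2 change 0.24 ± 0.22, adjusted p = 0.373) or 22Rv-1 (log2 change 0.25 ± 0.31, adjusted p = 0.524), and an antisense RNA overlaps 21.99% of its exon bases.

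The largest change of the 42 genes in C4-2 was that of ORM1 (chr9:114323056-114326475, + strand), which encodes orosomucoid 1, a lipid-carrying acute-phase protein of plasma. It had 0, 1 and 2 counts in C4-2 control and 573, 586 and 552 counts with ARv7, or 38.9, 41.8 and 44.1 CPM. In 22Rv-1 it had 2, 0 and 0 counts with shcontrol and none with shARv7. The ratio of summed counts in C4-2 was 609 (95% counting interval 208 to 2958), and the adjusted p was 2.9e-16. The size of so large a ratio rests on the 3 control counts: the fitted log2 change was 8.94, and 9.81 without C4-2 control replicate 3.

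ORM2 (chr9:114329869-114333251, + strand), its neighbour, lies 3393 bases away. It had 1, 1 and 6 counts in C4-2 control and 183, 164 and 156 in C4-2 ARv7, a ratio of 67.2 (95% counting interval 33.8 to 156) with an adjusted p of 1.3e-11. The fitted log2 change was 5.86, and 7.20 without C4-2 control replicate 3. In 22Rv-1 it had 4, 9 and 4 counts with shcontrol and 1, 7 and 5 with shARv7. Of all stretches of 50 bases in their transcripts, ORM1 shares 41.95% with ORM2 and ORM2 shares 50.2% with ORM1, so how the reads were divided between them is uncertain. The ORM1 promoter above holds no NF-kB match and 2 C/EBP matches.

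LCN2, SAA1 and C3 were under the filter in C4-2. LCN2 encodes lipocalin 2, which binds bacterial siderophores. It had 1, 0 and 2 counts in C4-2 control and 16, 13 and 4 in C4-2 ARv7, a ratio of 11.8 (95% counting interval 3.69 to 59.9). SAA1, serum amyloid A1, had 1 count in C4-2 control and 4, 9 and 0 in C4-2 ARv7, a ratio of 13.9 (95% counting interval 2.09 to 590.4), and SAA2 holds 46.6% of its 50-base stretches. C3, the central protein of complement, did not go with them: its counts were 1, 8 and 6 in C4-2 control and 6, 1 and 1 in C4-2 ARv7, a ratio of 1.75 (95% counting interval 0.698 to 4.78) in favour of control.

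C3 was instead the acute-phase gene that rose in 22Rv-1. Its counts were 6, 3 and 2 with shcontrol and 40, 30 and 36 with shARv7. All shARv7 libraries were higher, with a ratio of 10.2 (95% counting interval 5.46 to 21). The fitted rise was 3.26 ± 0.46 on the log2 scale, 9.55-fold, with an adjusted p of 8.8e-09. At 2.52 ± 0.357 CPM (mean ± SD, n = 3) C3 remained a low transcript.

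Acute-phase proteins are also markers of hepatocytes. Of 10 other hepatocyte markers, the summed level was 1.16 to 2.01 CPM in C4-2 control and 3.82 to 4.99 CPM in C4-2 ARv7, with TTR the one whose mean reached 1 CPM. TTR, AHSG and FGB are also among the other acute-phase proteins below. APOB, APOC3 and FGB were at 0 in all C4-2 ARv7 libraries. In 22Rv-1, where ORM1 was at most 2 counts, the same markers summed to 15.5 to 16.6 CPM with shcontrol and 13.9 to 16.4 with shARv7, most of it ALB.

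**Figure D3:**
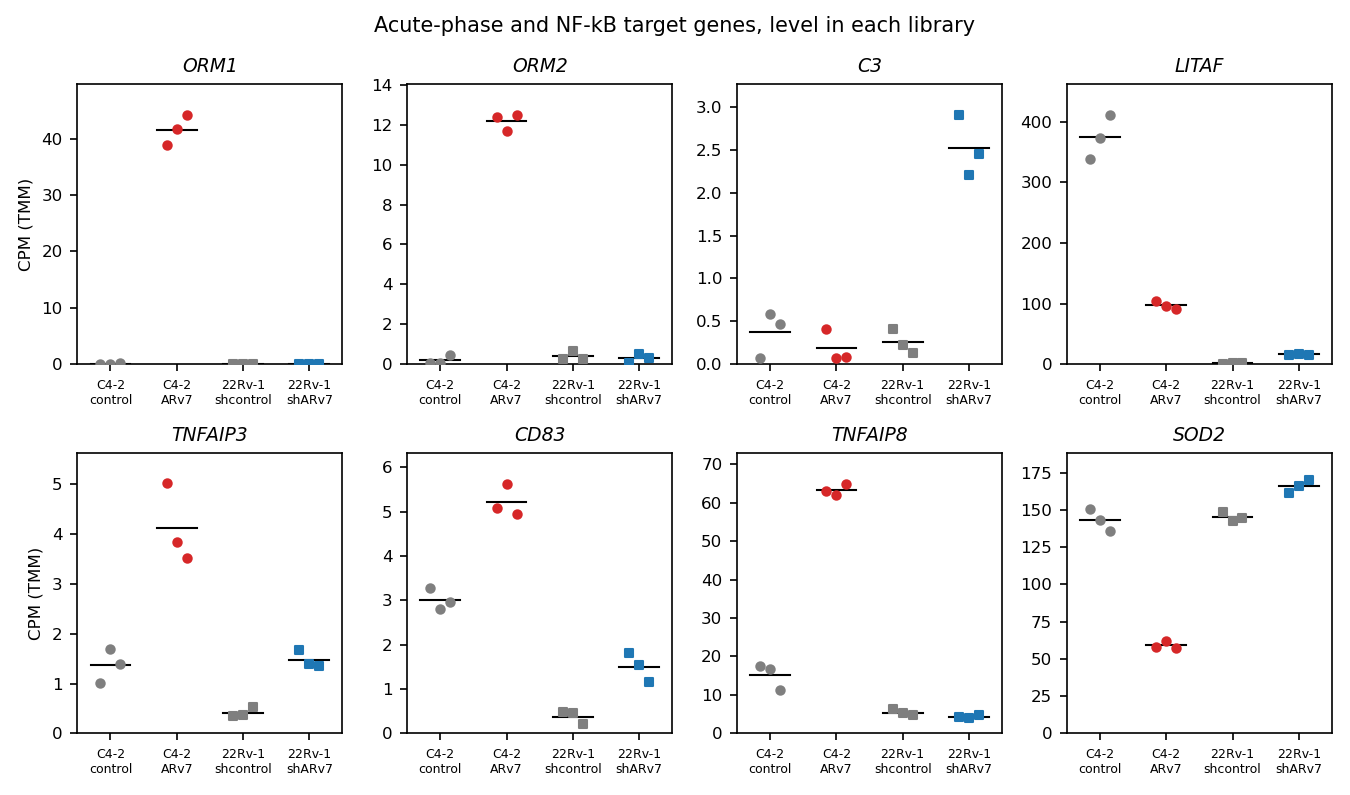
Level in CPM (TMM-normalised, linear axis from 0, a scale of its own in each panel) of 8 target and acute-phase genes in each of the 12 libraries, with a line at each group mean. ORM1 and ORM2 are seen in the C4-2 ARv7 group, C3 in 22Rv-1 shARv7, and TNFAIP3 and CD83 are higher in both altered groups than in their own controls.

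The comparisons within the lines share no library, so their calls can be set side by side. Of 22 genes tested in both, 7 were called in both. RELA, IRAK2, SOD2 and LITAF were lower with more ARv7 in both lines. NFKB2, TNFAIP3 and CD83 were higher in C4-2 ARv7 and also higher in 22Rv-1 shARv7. No gene of the 42 was called higher with more ARv7 in both lines, by edgeR or DESeq2, and the count was also 0 at an unadjusted p under 0.05. Over all genes, 3706 of 12080 tested in both were called in both, 1139 of them higher and 860 lower with more ARv7 in both lines. Together these 1999 are 53.9% of the 3706, against 4 of 7 here (57.1%).

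The difference of response was then tested in a single fit of all 12 libraries, as the change with added ARv7 in C4-2 minus the change from shARv7 to shcontrol in 22Rv-1. ARv7 was added only in C4-2 and depleted by a hairpin only in 22Rv-1. A difference by line and a difference by kind of manipulation therefore cannot be told apart. Of 29 genes tested, 18 were called (62.1%), against 50.7% of 14235 genes. The response was more positive in C4-2 for 11 and more negative for 7. With total counts these were 13 and 6, and the share of positive calls over all genes went from 54.04% to 71.98%. It differed by 3.10 ± 0.20 (adjusted p = 2.1e-15) for NFKBIZ, 3.38 ± 0.53 (adjusted p = 1.6e-06) for TNFAIP3 and 2.77 ± 0.50 (adjusted p = 1.4e-05) for CD83 on the log2 scale. NFKBIA and BCL3, which fell in C4-2 alone, gave -2.25 ± 0.089 (adjusted p = 9.5e-22) and -2.53 ± 0.21 (adjusted p = 8.2e-13). BIRC3 gave 3.31 ± 0.62 (adjusted p = 2.7e-05), and 4.30 without 22Rv-1 shcontrol replicate 2, which held 6 of the 9 counts of that group. ORM2 gave 5.52 ± 0.91 (adjusted p = 3.5e-06), and 6.86 without C4-2 control replicate 3. LITAF, lower with more ARv7 in both lines, differed by 1.17 ± 0.20 (adjusted p = 4.3e-06), but by -0.080 (adjusted p = 0.563) with limma on log2(FPKM + 1), a scale that shrinks changes of low levels. For ORM1 and CSF1 a group stood at 0, and edgeR called no difference (adjusted p = 0.969 and 0.9998). DESeq2 and limma did call ORM1, at 7.24 (adjusted p = 2.0e-04) and 5.40 (adjusted p = 2.9e-14), sizes that are no bound because of the group at 0. RELB gave 1.71 ± 0.62 (adjusted p = 0.0198), and 1.16 with an adjusted p of 0.13 without 22Rv-1 shARv7 replicate 1.

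Control cells of the lines differed in most genes tested, here as over all genes. Of 25 tested here, 8 were higher and 14 lower in 22Rv-1 shcontrol than in C4-2 control, where 42.7% and 40.5% of all genes were. That is 88% called, against 83.2% of all 13568 genes tested. The median log2 difference was -0.80 against 0.04 over all genes. LITAF was lower by 7.62 ± 0.13 on the log2 scale, 197-fold, with an adjusted p of 4.4e-24. TRAF1 had 0, 4 and 2 counts in C4-2 control and 128, 102 and 139 in 22Rv-1 shcontrol, a ratio of 63.8 (95% counting interval 29 to 175); the fitted log2 difference was 5.78, and 6.68 without C4-2 control replicate 2. CSF1, at 0 in C4-2, was at least 42.5-fold higher in 22Rv-1. TNFAIP2 was higher by 3.18 ± 0.15 on the log2 scale, 9.05-fold, with an adjusted p of 5.6e-16.

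BIRC3 was lower in 22Rv-1, with 9 counts against 93 over 3 libraries, a ratio of 9.96 (95% counting interval 5.03 to 22.5). Its fitted log2 difference was -3.39, and -4.37 without 22Rv-1 shcontrol replicate 2. CD83 was lower by 2.97 ± 0.39 (adjusted p = 1.8e-07) on the log2 scale. The groups differ in line and in vector, and 22Rv-1 expresses ARv7 by itself. These cannot be told apart here.

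**Figure D4:**
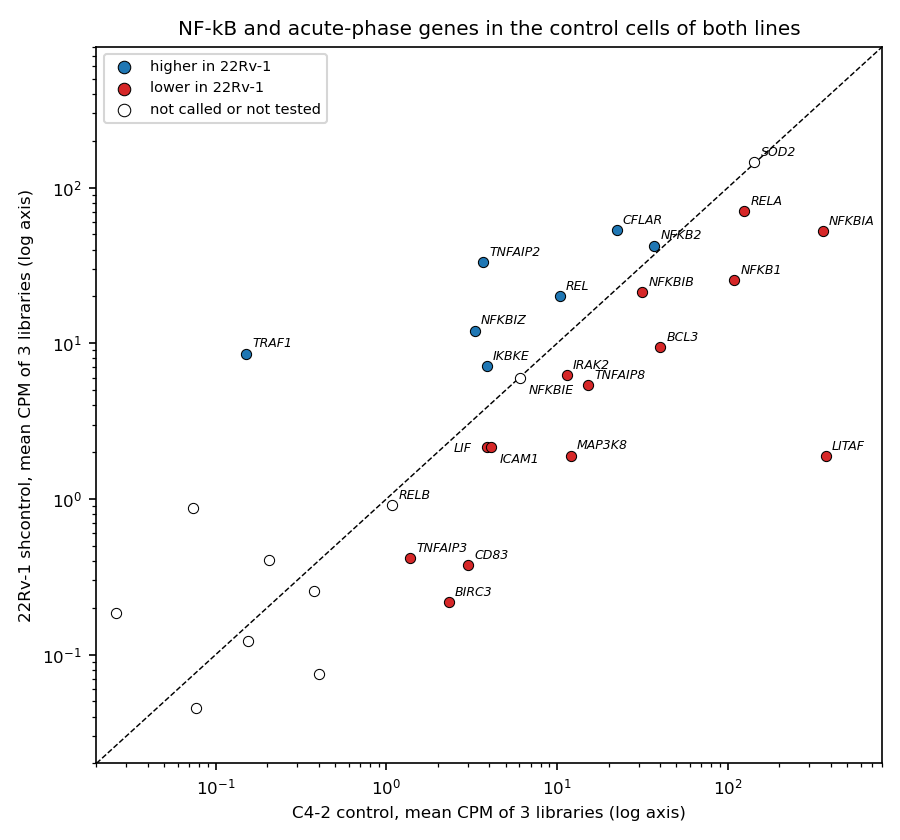
Mean CPM over 3 libraries in C4-2 control (horizontal) and 22Rv-1 shcontrol (vertical), both on log axes, for the 31 genes with a read in both groups. The dashed line marks equal levels. LITAF lies far below it and TRAF1 far above.

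Levels of different genes were compared per length, as FPKM (read counts that the authors divided by gene length and library size; mean ± SD, n = 3). In C4-2 control, NFKBIA stood first at 139 ± 4.48 FPKM, LITAF second at 67.9 ± 4.71 and RELA next at 21 ± 1.41, with no overlap between them. With ARv7, ORM1 stood first at 46.6 ± 3.14 FPKM, ahead of NFKBIA at 29.97 ± 1.05. LITAF (19.4 ± 1.2) and RELA (18.5 ± 0.784) then overlapped, and ORM2 followed at 16.2 ± 0.631. NFKBIA also led in 22Rv-1, at 22.6 ± 1.24 FPKM with shcontrol and 25.1 ± 0.911 with shARv7. Behind it came RELA with shcontrol (13.2 ± 0.203) and NFKB2 with shARv7 (18.2 ± 1.004). The order rests on annotated lengths, which are 18144 bases for SOD2 and 2371 for NFKBIA. Without division by length, SOD2 was above NFKBIA in 22Rv-1, at 145 against 52.7 CPM with shcontrol and 166 against 56.5 with shARv7. ORM1, with 901 bases, was then below NFKBIA in C4-2 ARv7, at 41.6 against 70.3 CPM. Its place also rests on how reads were divided between ORM1 and ORM2, which is uncertain. NFKBIZ had risen to the fourth place with shARv7 at 14.3 ± 0.752, where RELA (15.4 ± 0.537) overlapped with it.

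The summed level of the 42 genes was 1326 CPM in C4-2 control, 682 in C4-2 ARv7, 534 in 22Rv-1 shcontrol and 683 in 22Rv-1 shARv7. NFKBIA, LITAF and SOD2 made up most of the sum in C4-2 control. Between 6 and 9 of the genes had no read in a group, and 21 to 26 had a mean of at least 1 CPM.

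In C4-2 the NF-kB motif was in a promoter of 4 of the 8 higher genes that had an entry (NFKB2, TNFAIP3, BIRC3 and CD83) and of 4 of the 8 lower ones (NFKB1, NFKBIA, NFKBIB and BCL3). It was also in 4 of 5 that were not called (REL, NFKBIZ, MAP3K8 and CFLAR). In 22Rv-1 it was in 5 of 9 higher genes (NFKB2, NFKBIZ, MAP3K8, TNFAIP3 and CD83) in the 1 lower gene with an entry (CFLAR) and in 5 of 10 that were not called. No test was made of these counts.

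Upstream of these genes, the receptors that feed NF-kB gave 3 higher, 4 lower and 3 not called of 10 tested (70% called, against 59.1% of all genes), with a median log2 change of -0.010 in C4-2. In 22Rv-1 they gave 6 higher, 2 lower and 2 not called of 10 tested (80% called, against 48% of all genes), with a median log2 change of 0.66. IL1RAP, the accessory chain of the interleukin-1 receptor, fell by 0.75 ± 0.098 (adjusted p = 1.9e-06) on the log2 scale in C4-2 and rose by 1.38 ± 0.33 (adjusted p = 3.2e-04) in 22Rv-1 with shARv7. TNFRSF11A, the receptor RANK, fell by 1.18 ± 0.19 (adjusted p = 2.1e-05) in C4-2 and rose by 1.58 ± 0.28 (adjusted p = 2.0e-06) in 22Rv-1. TNFRSF12A, the receptor of TWEAK, rose in both, by 0.72 ± 0.14 (adjusted p = 2.6e-04) and 1.17 ± 0.14 (adjusted p = 3.6e-11). IL1R1, the signalling receptor of interleukin-1, fell in both, by 0.37 ± 0.093 (adjusted p = 0.00214) and 0.71 ± 0.091 (adjusted p = 3.7e-10). IL17RC, a chain of the interleukin-17 receptor, rose by 0.57 ± 0.089 (adjusted p = 1.8e-05) in C4-2 and was not called in 22Rv-1 (log2 change 0.055 ± 0.075, adjusted p = 0.573).

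CD40, a receptor of the non-canonical pathway, had 1, 3 and 1 counts with shcontrol and 37, 21 and 14 with shARv7 in 22Rv-1, a ratio of 15.2 (95% counting interval 6.22 to 48.2) with an adjusted p of 2.5e-07. In C4-2 it was under the filter. The library with the most CD40 counts, shARv7 replicate 1, is the one with 18 CPM of leukocyte markers. The part of such cells in the CD40 value was not tested.

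Adaptors and kinases between receptors and IkB gave 5 higher, 11 lower and 10 not called of 26 tested (61.5% called, against 59.1% of all genes), with a median log2 change of -0.16 in C4-2. In 22Rv-1 they gave 1 higher, 5 lower and 20 not called of 26 tested (23.1% called, against 48% of all genes), with a median log2 change of -0.064. In C4-2, BIRC2, which encodes cIAP1, fell by 0.92 ± 0.072 (adjusted p = 1.3e-09) on the log2 scale, TAB2, which links TAK1 to ubiquitin chains, by 0.81 ± 0.062 (adjusted p = 1.0e-09), CHUK, the kinase IKKα, by 0.58 ± 0.084 (adjusted p = 6.9e-06) and TRAF3, a brake of the non-canonical kinase NIK, by 0.46 ± 0.061 (adjusted p = 2.5e-06). In 22Rv-1 these were not called, with log2 changes of -0.057 for BIRC2, 0.033 for TAB2, -0.13 for CHUK and -0.13 for TRAF3. CARD10, a scaffold of NF-kB signalling in epithelia, fell by 0.69 ± 0.091 (adjusted p = 9.3e-10) in 22Rv-1 with shARv7 and rose by 1.88 ± 0.30 (adjusted p = 2.3e-05) in C4-2. TRAF5, an adaptor of TNF receptors, likewise fell by 0.23 ± 0.070 (adjusted p = 0.00478) in 22Rv-1 and rose by 1.43 ± 0.23 (adjusted p = 2.6e-05) in C4-2. TRAF2 fell in both, by 0.30 ± 0.080 (adjusted p = 0.00122) in 22Rv-1 and 0.25 ± 0.093 (adjusted p = 0.0246) in C4-2. RBCK1, a part of the linear ubiquitin ligase, fell by 0.17 ± 0.048 (adjusted p = 0.00265) in 22Rv-1 and was not called in C4-2 (log2 change -0.0028 ± 0.061, adjusted p = 0.972).

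Other regulators of the pathway, most of them brakes, gave 1 higher, 6 lower and 7 not called of 14 tested in C4-2. That is 50% called, against 59.1% of all genes, with a median log2 change of -0.12. In 22Rv-1 they gave 4 higher, 2 lower and 8 not called of 14 tested (42.9% called, against 48% of all genes), with a median log2 change of -0.0072. The deubiquitinase CYLD fell in C4-2 by 0.58 ± 0.074 (adjusted p = 1.5e-06), and the A20 partners TNIP2 and TNIP1 by 0.62 ± 0.086 (adjusted p = 4.2e-06) and 0.38 ± 0.078 (adjusted p = 2.9e-04). These were not called in 22Rv-1, with log2 changes of -0.098 for CYLD, 0.028 for TNIP2 and 0.066 for TNIP1. NKIRAS1, a partner of IkB, fell by 0.45 ± 0.095 (adjusted p = 4.0e-04) in C4-2 and rose by 0.30 ± 0.12 (adjusted p = 0.0311) in 22Rv-1. OTULIN, which cuts linear ubiquitin, rose by 0.27 ± 0.069 (adjusted p = 0.00195) in C4-2 and fell by 0.50 ± 0.077 (adjusted p = 6.3e-08) in 22Rv-1. FBXW11, which marks phosphorylated IkB for destruction, fell in both, by 0.21 ± 0.058 (adjusted p = 0.00423) and 0.18 ± 0.055 (adjusted p = 0.00468). FBXW11 and the related BTRC are in this list but are not brakes, since loss of IkB releases NF-kB. In 22Rv-1, ZC3H12A, a nuclease that degrades inflammatory transcripts, rose by 1.01 ± 0.24 (adjusted p = 2.9e-04), and PDLIM2, a ligase for RELA, by 0.74 ± 0.16 (adjusted p = 8.2e-05). They were not called in C4-2, with log2 changes of -0.032 for ZC3H12A and 0.57 for PDLIM2.

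Of 28 other NF-kB targets, most were under the filter, and C4-2 gave 3 higher, 3 lower and 4 not called of 10 tested (60% called, against 59.1% of all genes), with a median log2 change of 0.070. In 22Rv-1 they gave 6 higher, 1 lower and 5 not called of 12 tested (58.3% called, against 48% of all genes), with a median log2 change of 0.41. DRAM1, a gene of autophagy, fell by 2.91 ± 0.098 (adjusted p = 3.5e-15) on the log2 scale in C4-2 and rose by 0.42 ± 0.14 (adjusted p = 0.0102) in 22Rv-1. SDC4, a syndecan, fell by 0.67 ± 0.15 (adjusted p = 5.4e-04) in C4-2 and rose by 0.96 ± 0.099 (adjusted p = 1.3e-13) in 22Rv-1, and EFNA1, an ephrin, fell by 0.44 ± 0.057 (adjusted p = 2.2e-06) and rose by 0.19 ± 0.052 (adjusted p = 0.00131). B2M, the light chain of class I molecules, rose by 1.34 ± 0.054 (adjusted p = 6.4e-14) in C4-2 and was not called in 22Rv-1 (log2 change 0.028 ± 0.055, adjusted p = 0.702). TAP1, the peptide transporter of class I molecules, rose by 0.71 ± 0.10 (adjusted p = 2.5e-08) in 22Rv-1 and was not called in C4-2 (log2 change 0.17 ± 0.15, adjusted p = 0.338). BMP2 fell by 0.35 ± 0.089 (adjusted p = 7.5e-04) in 22Rv-1 and was under the filter in C4-2.

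The IL-6 family, which drives the acute-phase response through STAT3, gave 4 higher, 4 lower and 7 not called of 15 tested (53.3% called, against 59.1% of all genes), with a median log2 change of -0.026 in C4-2. In 22Rv-1 it gave 3 higher, 6 lower and 6 not called of 15 tested (60% called, against 48% of all genes), with a median log2 change of -0.19. STAT3 itself fell by 0.44 ± 0.060 (adjusted p = 3.8e-06) in C4-2 and rose by 0.31 ± 0.064 (adjusted p = 2.3e-05) in 22Rv-1. BCL6, a repressor and STAT3 target, fell by 1.64 ± 0.084 (adjusted p = 2.2e-12) and rose by 0.45 ± 0.073 (adjusted p = 2.1e-07), and the receptor IL11RA fell by 0.61 ± 0.15 (adjusted p = 0.00189) and rose by 0.60 ± 0.12 (adjusted p = 1.4e-05). IL6R rose by 0.40 ± 0.059 (adjusted p = 1.0e-05) in C4-2 and fell by 0.25 ± 0.063 (adjusted p = 5.4e-04) in 22Rv-1. CEBPB fell in both, by 0.68 ± 0.098 (adjusted p = 7.4e-06) and 0.32 ± 0.084 (adjusted p = 9.6e-04). LIFR, the receptor of LIF, rose by 1.51 ± 0.074 (adjusted p = 9.3e-13) in C4-2 and was not called in 22Rv-1 (log2 change 0.19 ± 0.13, adjusted p = 0.241).

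Of 32 other acute-phase proteins, C4-2 gave 5 higher, 1 lower and 5 not called of 11 tested (54.5% called, against 59.1% of all genes), with a median log2 change of 0.22. In 22Rv-1 the list gave 3 higher, 2 lower and 8 not called of 13 tested (38.5% called, against 48% of all genes), with a median log2 change of 0.26. TTR, transthyretin, which falls in the classical acute phase, rose by 2.13 ± 0.39 (adjusted p = 1.1e-04) in C4-2 and was under the filter in 22Rv-1. A2M, a protease inhibitor of plasma, was under the filter in C4-2 and rose by 3.98 ± 0.45 (adjusted p = 6.0e-12) in 22Rv-1, with 1, 3 and 5 counts with shcontrol and 45, 41 and 59 with shARv7. PLAUR, the urokinase receptor, rose by 2.18 ± 0.62 (adjusted p = 0.00505) in C4-2 and fell by 1.10 ± 0.19 (adjusted p = 8.4e-07) in 22Rv-1. FTH1, the ferritin heavy chain, rose by 0.22 ± 0.070 (adjusted p = 0.0119) in C4-2 and fell by 0.55 ± 0.073 (adjusted p = 9.0e-10) in 22Rv-1, while FTL, the light chain, rose in both, by 0.24 ± 0.072 (adjusted p = 0.00852) and 0.27 ± 0.048 (adjusted p = 1.5e-06). The complement protease C1S fell by 1.08 ± 0.25 (adjusted p = 9.2e-04) in C4-2 and was not called in 22Rv-1 (log2 change 0.30 ± 0.36, adjusted p = 0.517). None of the genes tested from this list reached the size of the ORM1 change in C4-2.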

How the data were processed

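RNA of 12 dishes of C4-2 and 22Rv-1 cells was sequenced, 3 per group. Per the labels' protocols, reads were trimmed with Cutadapt 2.7. Which aligner and counter were used, and whether the libraries keep the strand, is not stated in the sources used here. The authors deposited raw counts of reads per gene, and beside them FPKM, where the authors divided the counts by gene length and library size. The table held 19974 lines, 1 of them without a gene identifier, leaving 19973 genes. The build is hg18 per the labels, but of 19876 identifiers found in GENCODE release 29 on GRCh38, 19821 had a start or end within 10000 bp of it and 9000 had both the same, so coordinates are given as GRCh38.

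The counts were tested with edgeR 4.0.16 in R 4.3.3: filterByExpr, TMM and the quasi-likelihood F-test after glmQLFit, at a Benjamini-Hochberg adjusted p under 0.05 over all genes tested. Each line was fitted on its own, the controls of both lines in another fit, and the difference of response in a fit of all 12 libraries. Folds come from these fits, and CPM from TMM over all 12 libraries, except for floors and sums over cell type markers, which use total counts. Genes with at most 30 counts in a group were also given the ratio of total counts with an exact 95% counting interval, or, against a group at 0, a bound that sets the group to 3 counts in all. Intervals and floors cover counting error only, since PCR copies were not told apart. The pipeline was tested on simulated data. The check of the targeted gene is not reported here.

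Values per library are given for up to 12 genes per comparison within a line, and 6 for the others: those with the largest log2 change among the called genes with at least 1 CPM in the higher group, and for other genes by range, count or fold. From each pathway list, up to 4 called genes with the smallest adjusted p in each line are named, and a gene named for one line is given in the other too. The 42 genes, the lists and the rule were chosen with earlier results of these data known. Promoters are from RefSeq (GRCh38.p14). Alternatives tried were DESeq2 1.42.0, edgeR with DESeq2's size factors, total counts, no filter, a mean of at least 5 CPM, limma 3.58.1 on log2(FPKM + 1) with a mean FPKM of at least 1, 1 fit of all 12 libraries, the replicate number as a block, and leaving out each library.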

Additional observations from a re-analysis of the deposited data

Results flagged for a closer look

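Between C4-2 with added ARv7 and 22Rv-1 with depleted ARv7, the response differed for 18 of the 29 genes tested (62.1%, against 50.7% of all genes). These calls come from the test of the difference itself (edgeR, adjusted p under 0.05, 1 fit of all 12 libraries). The other 13 of the 42 genes were under the filter. The line and the kind of manipulation, overexpression or hairpin, go together in this design and cannot be told apart. Values are the log2 change with added ARv7 in C4-2 minus the log2 change from shARv7 to shcontrol in 22Rv-1. The subunit genes gave -1.22 for NFKB1, 1.70 for NFKB2 and 1.71 for RELB, where RELB was not called without 22Rv-1 shARv7 replicate 1 (adjusted p = 0.13), C4-2 control replicate 3 (0.0542) or 22Rv-1 shcontrol replicate 3 (0.0655). IkB-type genes gave -2.25 for NFKBIA, -1.17 for NFKBIB, 3.10 for NFKBIZ and -2.53 for BCL3. Signalling genes gave 1.31 for IKBKE, -0.61 for IRAK2, a call lost in 6 of 19 alternatives, and 3.38 for TNFAIP3. Survival and stress genes gave 3.31 for BIRC3, -0.54 for CFLAR, 1.73 for TNFAIP8 and -1.09 for SOD2. Other targets gave 2.77 for CD83, 1.46 for TNFAIP2 and 1.17 for LITAF, and the acute-phase gene ORM2 gave 5.52. For NFKB2, TNFAIP3 and CD83 the genes rose in both C4-2 ARv7 and 22Rv-1 shARv7, and IRAK2, SOD2 and LITAF were lower with more ARv7 in both lines but by different amounts.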

How the results depend on the processing

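All 17 calls in C4-2 kept their direction and their side of the threshold under the 14 alternatives that gave a value. In 22Rv-1, 12 of 15 did, with IER3, RELA and RELB as the exceptions given above. In the difference of response, IRAK2 lost its call with total counts (log2 -0.43, adjusted p = 0.12), and in 5 of 12 fits without 1 library, RELB in 3 of 12. Between control cells, NFKB2 lost its call in 6 of 13 alternatives: with DESeq2 (adjusted p = 0.050045), with the replicate block, and without replicate 1 or 2 of either control (0.0744 to 0.11). ICAM1 lost it without shcontrol replicate 3 (0.0675). Calls were gained in C4-2 by CFLAR with total counts (log2 0.35, adjusted p = 0.0107) and by MAP3K8 without a filter (0.0409) and without control replicate 2 (0.00756), in 22Rv-1 by NFKBIA with limma (0.0421), and between control cells by SOD2 with total counts (0.0326). In the difference of response, C3 gained a call in 5 of 17 alternatives, MAP3K8 in 4 of 19, ORM1 in 2 of 19, and NFKBIE (limma) and REL (without C4-2 control replicate 1) in 1 each.

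Fewer genes are tested at a mean of at least 5 CPM, where 8 genes were called in 22Rv-1 (7 higher, 1 lower), 6 were more positive in the difference of response and 9 lower between control cells. With limma on log2(FPKM + 1), 1 gene was lower in 22Rv-1 and 9 between control cells.

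Values that changed sign were these, and the cause was not tested. In 22Rv-1, with total counts, a mean of 5 CPM and limma in turn, NFKB1 gave 0.047, 0.019 and 0.037, BCL3 0.040, 0.013 and 0.034, and TRAF1 0.030, 0.0033 and 0.024. In the difference of response, RELA gave 0.037 with total counts and 0.032 with limma. LITAF, called at 1.17 in the main analysis, gave -0.080 with limma. Between control cells, NFKBIE gave 0.0021 with the size factors, 0.13 with total counts, 0.0037 with DESeq2, 0.0030 without a filter, 0.025 at 5 CPM and 0.089 with limma.

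Leaving out each library in turn, values that changed sign ran as follows. REL in C4-2 ran from -0.066 to 0.38. In 22Rv-1, NFKB1 ran from -0.068 to 0.12, BCL3 from -0.12 to 0.076, TRAF1 from -0.095 to 0.043, LIF from -0.34 to 0.048, ICAM1 from -0.10 to 0.49 and TNFAIP2 from -0.022 to 0.14. IER3, at 1.08 over all libraries, ran from -2.09 to 1.92 in the difference of response. Between control cells RELB ran from -0.60 to 0.15, NFKBIE from -0.11 to 0.095 and SOD2 from -0.010 to 0.068. None of the values in this paragraph was called in the main analysis.

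Replicate numbers did not pair the dishes: deviations of libraries with the same number correlated at -0.057 to 0.015. With the replicate number as a block, 17, 15, 18 and 21 of the 42 genes were called in C4-2, 22Rv-1, the difference of response and the control cells, against 17, 15, 18 and 22. Under the block NFKB2 was no longer called between control cells (adjusted p = 0.0772), NFKB1 in 22Rv-1 gave 0.0024, and no other call changed.

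Counts limit the 17 genes under the filter in C4-2 and the 16 in 22Rv-1, most of them chemokines and cytokines, for which no test was made.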
